A study of Mus musculus with 36 samples.

Results

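Lung transcripts of 3 Notch4-/- mice that breathed filtered air were compared with those of 3 WT mice in air, 6 of the 36 arrays of the study, over all 45037 probe sets that are not array controls. The arrays were taken by their titles, 1 mouse to an array, and RNA came from the left lung. Notch4-/- mice were B6;129S1-Notch4tm1Grid/J and WT mice were B6129SF1/J, first-generation hybrids of the parent strains. All were males 7 to 13 weeks old from the same supplier. The mutation is carried in every cell, and the knockout and the strain background cannot be told apart in these mice. Sets of 9 Notch4-/- and 9 WT mice kept in 0.3 ppm ozone, with 3 mice of each at 6, 24 and 48 hr, and 3 Notch3-/- mice (B6;129S1-Notch3tm1Grid/J) in air were used for checks and side-by-side values.

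Notch receptors are transmembrane proteins that are cut when a Delta-like or Jagged ligand on a neighbouring cell binds them. The freed intracellular part enters the nucleus, joins the DNA-binding protein Rbpj, and turns on Hes and Hey genes. Notch4 is best known from the endothelium, the cell layer that lines blood vessels.

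Values were log2 after robust multiarray averaging, and each probe set was centred on its median over the 36 arrays. A level below is therefore log2 relative to that median, and a difference is Notch4-/- minus WT in log2. Brightness and detection cannot be read from such values. Array medians lay between -0.03 and 0.03, and the number of arrays limits the precision, with a median SE of a difference in air of 0.139. A probe set passed when its limma p-value, adjusted by Benjamini-Hochberg over all 45037, was under 0.05. A gene is said to have risen or fallen when its probe set passed, and every adjusted p below is of this kind.

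Notch4 itself was lower in Notch4-/- mice, but unevenly so. Its probe set 1449146_at had levels of -1.97, -1.40 and -3.69 in the 3 Notch4-/- mice in air, against 0.34, 0.22 and 0.24 in the WT mice. Mice 1 and 2 were thus less far below WT than mouse 3. In the 9 Notch4-/- mice in ozone the same probe set ran between -4.31 and -3.42, so that air mouse 3 lay within their range and air mice 1 and 2 lay above it. The air difference was -2.62 (SE 0.31, adjusted p = 9.2e-06). This SE rests on a spread shared by all 12 groups and not on that of the uneven air mice. In limma fits to the 6 air arrays of both genotypes or to the 9 air arrays this probe set did not pass (adjusted p = 0.31 and 0.093). A second probe set, 1456263_at, had the same order of mice, with -0.47, -0.19 and -0.82 in Notch4-/- mice and 0.24, 0.10 and 0.09 in WT mice. Its difference of -0.63 (adjusted p = 0.04) passed in 1 of the 6 fits that left out 1 air mouse each and did not pass with the replicate block, which pairs same-numbered mice (adjusted p = 0.051). The third, 1436901_at, did not pass (-0.15, adjusted p = 0.9). The sources at hand do not place these probes relative to the targeted part of the gene.

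**Figure D1:**
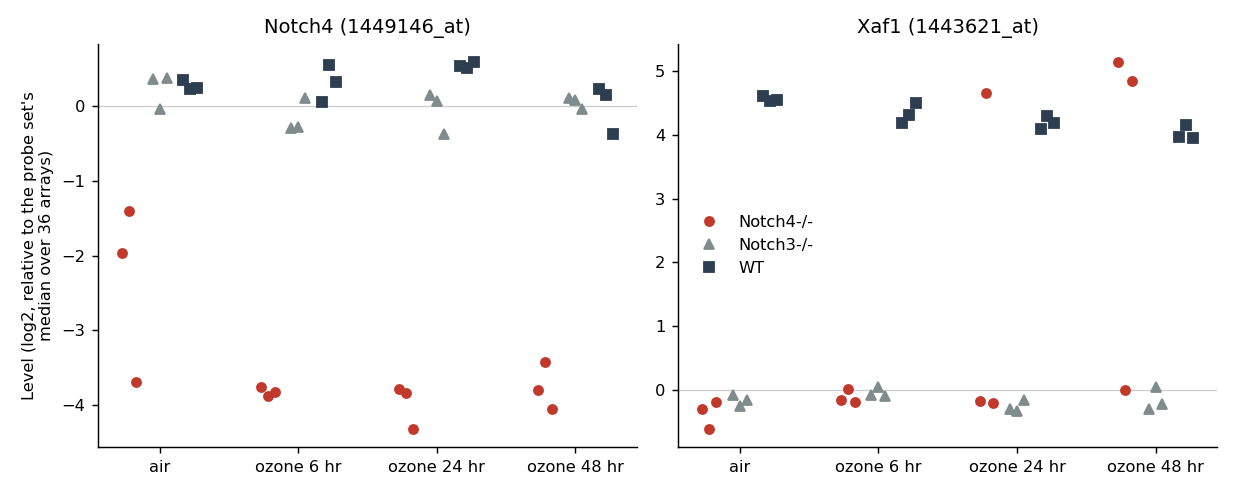
Level of Notch4 (1449146_at, left) and of Xaf1 (1443621_at, right) in every mouse, in log2 relative to the median of the probe set over 36 arrays, with air and the ozone times along the horizontal axis 1 mark per mouse, and Notch4-/-, Notch3-/- and WT mice side by side at each. Notch4-/- air mice 1 and 2 stand at -1.97 and -1.40, above the other Notch4-/- mice, and Xaf1 stands at the WT level in 3 of the 9 Notch4-/- mice in ozone.

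In air 217 probe sets passed, 0.482% of those tested. Of these 77 were higher in Notch4-/- mice (0.171%) and 140 lower (0.311%). They name 167 genes, of which 58 rose and 110 fell, with Adi1 among both through different probe sets. At an unadjusted p under 0.05 there were 3333 probe sets. The median difference was 0.83 among the rises and -0.78 among the falls, and 24 of the 77 rises and 50 of the 140 falls were larger than 1. Differences larger than 2 were falls in 10 probe sets and rises in 0. The 3 Notch4-/- levels did not overlap the 3 WT levels at 214 of the 217, while 11.9% of all probe sets had groups that did not overlap. Leaving out 1 mouse moved the total to between 106 and 238 and changed the balance of directions. Without Notch4-/- mouse 1 there were 111 calls, without WT mouse 2 there were 134 and without WT mouse 3 there were 106. Without Notch4-/- mouse 3 there were 138 higher and 100 lower.

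Calls that passed in every one of the 6 fits without a mouse were 56 of the 140 falls (40%) and 18 of the 77 rises (23.4%). Among the 15 largest falls 14 passed in all 6, and among the 15 largest rises 2 did.

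**Figure D2:**
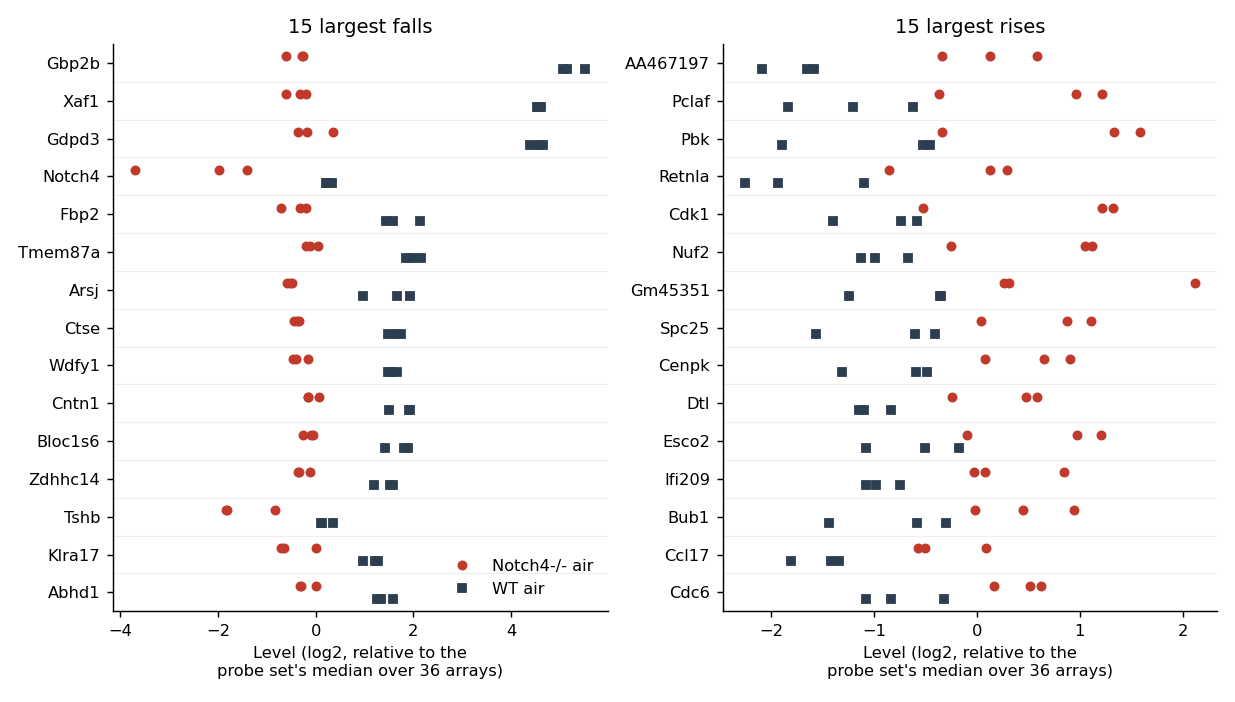
Level of the 15 genes with the largest falls (left) and the 15 with the largest rises (right) in each mouse in air, in log2 relative to the median of the probe set over 36 arrays on the horizontal axis, with Notch4-/- mice above WT mice in each row. For Gbp2b, Xaf1 and Gdpd3 the gap between the genotypes is over 4, while most rises have 1 Notch4-/- mouse close to the WT range.

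The largest fall was that of Gbp2b, an interferon-induced guanylate-binding GTPase. Its levels were -0.26, -0.28 and -0.61 in Notch4-/- mice and 5.51, 5.05 and 5.14 in WT mice, a difference of -5.62 (SE 0.22, adjusted p = 2.5e-16). Within each genotype the mice lay close together and the genotypes stood far apart. Of the 11 measured guanylate-binding and immunity-related GTPases Gbp2b alone passed, and the other members lay between -0.10 (Gbp8) and 0.44 (Gbp7), with a list median of 0.07. Gbp2, the member most alike in name, had 0.02, -0.10 and 0.02 in Notch4-/- mice and 0.32, -0.23 and -0.32 in WT mice (0.06, adjusted p = 0.98).

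Gdpd3, which cleaves glycerophosphodiesters in lysophospholipid metabolism, had levels of -0.17, -0.37 and 0.35 in Notch4-/- mice and 4.38, 4.56 and 4.65 in WT mice (-4.59, SE 0.28, adjusted p = 8.6e-12). Fbp2, a fructose bisphosphatase of gluconeogenesis, had -0.31, -0.19 and -0.71 in Notch4-/- mice and 1.43, 1.58 and 2.13 in WT mice (-2.12, adjusted p = 9.3e-09). Its relative Fbp1 also fell, with -0.12, -0.30 and -0.47 in Notch4-/- mice and 0.69, 0.96 and 0.51 in WT mice (-1.01, adjusted p = 0.0082). These were the only calls among 22 measured genes of glycolysis and gluconeogenesis, whose median was -0.06, and the Fbp1 call did not pass without WT mouse 2 (adjusted p = 0.079).

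The other falls among the 15 were of genes with different roles. Tmem87a, a Golgi membrane protein, had -0.11, -0.20 and 0.04 in Notch4-/- mice and 1.84, 2.16 and 1.98 in WT mice (-2.08, SE 0.10, adjusted p = 7.8e-14). Bloc1s6 (pallidin), a subunit of a complex that builds lysosome-related organelles, fell by 1.83 (adjusted p = 4.4e-11) at 1457088_at, but its other probe sets did not pass and gave 0.00 and -0.21. Ctse, the aspartic protease cathepsin E, had -0.33, -0.44 and -0.39 in Notch4-/- mice and 1.48, 1.74 and 1.65 in WT mice (-2.01, adjusted p = 1.3e-05). Wdfy1, an endosomal adaptor of Toll-like receptor signaling, fell by 1.91 (adjusted p = 7.3e-09), and 3 of its 5 probe sets passed.

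Arsj is an arylsulfatase (-2.05), Cntn1 a neuronal cell adhesion protein (-1.86), Zdhhc14 a palmitoyltransferase (-1.70), Klra17 a lectin-like receptor of the Ly49 family (-1.60) and Abhd1 an abhydrolase (-1.59). Tshb, the beta subunit of thyrotropin, had -1.83, -0.84 and -1.81 in Notch4-/- mice and 0.12, 0.14 and 0.35 in WT mice (-1.69, adjusted p = 0.0068). The Tshb call did not pass without Notch4-/- mouse 1 or without WT mouse 3, where its adjusted p reached 0.072. Of the 30 genes with the largest changes 14 have more than 1 probe set, and for all 14 at least 1 of these did not pass. A named difference is therefore that of its probe set and need not hold for the gene as a whole. What sets the probe sets of a gene apart was not tested.

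Xaf1, an interferon-induced inhibitor of the XIAP apoptosis blocker, had levels of -0.31, -0.61 and -0.20 in Notch4-/- mice in air and 4.61, 4.53 and 4.55 in WT mice (-4.94, SE 0.88, adjusted p = 0.0039). In ozone the Notch4-/- mice fell into separate levels. At 6 hr they had -0.16, 0.01 and -0.20, at 24 hr -0.17, 4.66 and -0.21, and at 48 hr 5.14, -0.01 and 4.85. Thus 6 of the 9 lay between -0.21 and 0.01 and 3 between 4.66 and 5.14, above all 12 WT mice (3.95 to 4.61). The 12 Notch3-/- mice ran between -0.34 and 0.05. The air difference did not pass in the methods' ANOVA with Tukey's test (adjusted p = 0.64). A second Xaf1 probe set, 1443698_at, did not pass either (1.03, adjusted p = 0.43).

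Several falls outside the 15, chosen after their values were seen, also passed in all 6 fits without a mouse. Nnt, the mitochondrial transhydrogenase that makes NADPH, had -0.10, 0.10 and -0.08 in Notch4-/- mice and 0.61, 1.0 and 1.09 in WT mice (-0.93, adjusted p = 1.4e-05). Procr, the endothelial protein C receptor, had 0.25, -0.38 and -0.31 in Notch4-/- mice and 1.01, 1.31 and 1.23 in WT mice (-1.33, adjusted p = 4.7e-05). Cdkn2a, which encodes the p16 and p19 inhibitors of the cell cycle, had -0.03, -0.51 and -0.11 in Notch4-/- mice and 0.81, 1.40 and 1.45 in WT mice (-1.44, adjusted p = 0.0044). Psca, an anchored surface protein of epithelia, had -0.34, 0.06 and -0.12 in Notch4-/- mice and 1.48, 1.65 and 1.20 in WT mice (-1.58, adjusted p = 1.3e-07). None of these had a Notch4-/- mouse within the WT range. Bcat2, the mitochondrial transaminase of branched-chain amino acids, had -0.16, -0.30 and 0.02 in Notch4-/- mice and 0.59, 1.37 and 0.97 in WT mice (-1.12, adjusted p = 0.0013). Paip1, a cofactor of the poly(A)-binding protein in translation, had -0.20, -0.13 and 0.14 in Notch4-/- mice and 1.11, 1.22 and 1.20 in WT mice (-1.24, adjusted p = 4.5e-07), while 2 of its 4 probe sets did not pass. Mapk8, the stress kinase JNK1, fell by 1.51 at 1457936_at (adjusted p = 1.3e-05), with its other 4 probe sets at -0.28 to 0.56 and not passing.

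The rises were led by genes of cell division. Of 37 measured genes of mitosis and cytokinesis 6 rose (16.2%) and 0 fell, with Cdk1, Nuf2, Pbk, Bub1, Cdc20 and Mad2l1 passing, against 0.225% of 18193 genes rising. Differences were positive for 36 of the 37 and their median was 0.85, where the median of all genes was -0.03. Of 29 genes of DNA replication 3 rose (Cdc6, Ccne2 and Mcm6), 26 were positive, and the median was 0.23. Other cell cycle genes stood among the 15 largest rises, namely Pclaf, which binds the replication clamp PCNA, Spc25 and Cenpk of the kinetochore, Dtl, an adaptor for the destruction of licensing factors, and Esco2, a cohesin acetyltransferase, whose call did not pass with the replicate block (adjusted p = 0.056). Mcm6, a subunit of the replicative helicase, did not pass with that block either (adjusted p = 0.061). In whole lung, a change in the number of cells of a type and a change in RNA per cell cannot be told apart.

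These genes were high in Notch4-/- mice 1 and 2 and not in mouse 3. Cdk1, the kinase that drives entry into mitosis, had levels of 1.22, 1.32 and -0.52 in Notch4-/- mice and -1.40, -0.74 and -0.58 in WT mice (1.58, SE 0.36, adjusted p = 0.039). Mouse 3 exceeded the highest WT mouse only narrowly. Nuf2, a part of the kinetochore's microtubule anchor, had 1.05, 1.12 and -0.25 in Notch4-/- mice and -1.12, -0.99 and -0.67 in WT mice (1.57, SE 0.28, adjusted p = 0.0043). Pbk, a kinase of dividing cells, had 1.33, 1.59 and -0.34 in Notch4-/- mice and -1.89, -0.52 and -0.45 in WT mice (1.81, SE 0.43, adjusted p = 0.049). WT mouse 1 was the lowest of its group in each of these genes.

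The list as a whole had the same order. The median level of the 37 genes was 0.71, 0.91 and -0.24 in Notch4-/- mice 1, 2 and 3, and -0.65, -0.18 and -0.19 in the WT mice, so that mouse 3 lay inside the WT range. Mad2l1, a spindle checkpoint protein, was the called member in which mouse 3 came closest to the others of its genotype, with 0.50, 0.55 and 0.41 in Notch4-/- mice and -0.59, -0.08 and -0.21 in WT mice (0.78, adjusted p = 0.026). Mki67, the proliferation marker, had 0.84, 1.23 and -0.60 in Notch4-/- mice and -1.32, -0.62 and -0.32 in WT mice and did not pass (1.24, adjusted p = 0.18). Of the 6 calls 0 remained without Notch4-/- mouse 1 and 0 without mouse 2, and there were 20 without mouse 3. Without WT mouse 1 there was 1, and without WT mouse 2 or WT mouse 3 there were 2. Of the 3 DNA replication calls 0 remained without Notch4-/- mouse 1 or mouse 2 or without WT mouse 1 or WT mouse 3. Kif11, a spindle motor (1.16, adjusted p = 0.031), and Mcm5, a helicase subunit (0.86, adjusted p = 0.031), rose through probe sets other than those that stand for them in the lists, and Cks1b, a partner of cyclin-dependent kinases outside the lists, rose by 0.80 (adjusted p = 0.049). In these 3 as well mouse 3 was the lowest Notch4-/- mouse. The 14 cell cycle genes named before them (the 9 of both lists, Pclaf, Spc25, Cenpk, Dtl and Esco2) each lost their call without Notch4-/- mouse 1 and again without mouse 2, with adjusted p up to 0.32. With Notch4-/- mice 1 and 2 both left out the median of the list was 0.12.

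**Figure D3:**
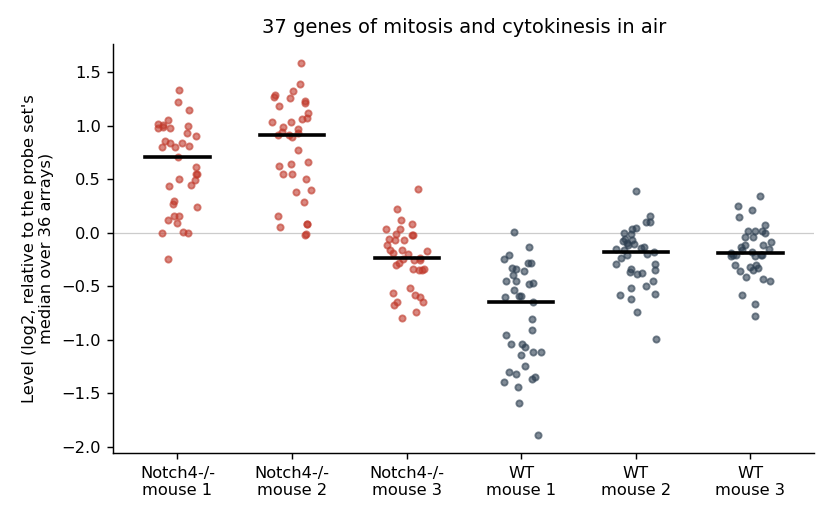
Level of 37 genes of mitosis and cytokinesis in each of the 6 mice in air, in log2 relative to the median of each probe set over 36 arrays on the vertical axis, with 1 dot per gene and a bar at the median. The bars stand at 0.71 and 0.91 in Notch4-/- mice 1 and 2, at -0.24 in mouse 3, and between -0.65 and -0.18 in WT mice.

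Promoters of this group were read because its members moved together. The RefSeq windows (GRCm38.p6) run from 250 bases before to 50 after a gene's start. They were searched on both strands for TTTGAA, a core of the cell cycle homology element, and for CCAAT, the box bound by NF-Y. Other forms of that core were not searched for, so a window without TTTGAA may still hold such an element. Of 33 windows of the 31 mitosis genes found in the RefSeq table, 78.8% held TTTGAA and 75.8% held CCAAT, and 69.7% held both. Over all 32851 windows these shares were 17.9%, 37.4% and 6.95%. Of the 9 genes of the mitosis and DNA replication lists that rose, 7 were found, and their 7 windows held TTTGAA in 28.6%, CCAAT in 57.1% and both in 28.6%. The share over the mitosis list was thus not that of the genes that passed. The 7 include Cdc6 and Mcm6 of the DNA replication list, so these are not shares of like sets. In the 26 windows of the 24 DNA replication genes found, TTTGAA was in 7.69% and CCAAT in 61.5%. A match is a description of the letters and not of binding. Among those 7 windows Cdk1 and Cdc20 hold both motifs, Bub1 and Mcm6 hold CCAAT alone, and Nuf2, Mad2l1 and Cdc6 hold neither. The windows of Cdk1, Cdc20, Bub1 and Nuf2 are shown as examples of each, with every match on either strand in capitals.

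Cdk1 (chr10:69352863-69353162, - strand): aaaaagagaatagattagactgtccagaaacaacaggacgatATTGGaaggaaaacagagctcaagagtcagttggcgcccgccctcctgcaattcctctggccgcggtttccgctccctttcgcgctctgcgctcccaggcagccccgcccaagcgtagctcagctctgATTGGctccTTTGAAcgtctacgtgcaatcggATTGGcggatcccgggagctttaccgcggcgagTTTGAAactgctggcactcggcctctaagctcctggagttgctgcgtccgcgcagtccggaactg
Cdc20 (chr4:118437294-118437593, - strand): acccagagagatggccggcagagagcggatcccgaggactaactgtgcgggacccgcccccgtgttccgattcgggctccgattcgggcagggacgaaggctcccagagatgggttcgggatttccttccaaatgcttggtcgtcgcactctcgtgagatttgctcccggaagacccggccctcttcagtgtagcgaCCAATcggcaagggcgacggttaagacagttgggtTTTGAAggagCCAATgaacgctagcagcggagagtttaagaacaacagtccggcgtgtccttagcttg
Bub1 (chr2:127831810-127832109, - strand): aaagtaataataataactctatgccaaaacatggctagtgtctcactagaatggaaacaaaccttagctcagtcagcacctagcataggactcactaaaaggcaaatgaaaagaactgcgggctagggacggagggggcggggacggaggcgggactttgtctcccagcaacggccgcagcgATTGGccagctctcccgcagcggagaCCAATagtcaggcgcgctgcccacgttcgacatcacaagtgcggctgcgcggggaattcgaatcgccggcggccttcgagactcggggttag
Nuf2 (chr1:169531415-169531714, - strand): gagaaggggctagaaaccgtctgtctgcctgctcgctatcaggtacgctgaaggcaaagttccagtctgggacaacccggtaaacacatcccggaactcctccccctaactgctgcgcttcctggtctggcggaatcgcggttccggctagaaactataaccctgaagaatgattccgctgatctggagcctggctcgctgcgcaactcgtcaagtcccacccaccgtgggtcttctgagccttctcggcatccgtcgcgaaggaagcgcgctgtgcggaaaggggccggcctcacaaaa

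Among the 15 largest rises AA467197 and Ccl17 were the 2 that still passed whichever air mouse was left out. AA467197 had levels of 0.13, 0.59 and -0.34 in Notch4-/- mice and -2.09, -1.58 and -1.65 in WT mice (1.91, SE 0.26, adjusted p = 8.1e-05). Ccl17, a chemokine that draws cells bearing Ccr4, had -0.50, 0.09 and -0.57 in Notch4-/- mice and -1.80, -1.34 and -1.42 in WT mice (1.20, SE 0.18, adjusted p = 0.00035), the only call among 23 chemokines (median 0.11). Ccl17 gave an adjusted p = 0.056 after the arrays were quantile normalized once more and 0.061 in the methods' ANOVA with Tukey's test. Gm45351, also among the 15, was high in mouse 3 rather than in mice 1 and 2, with 0.26, 0.31 and 2.12 in Notch4-/- mice and -1.24, -0.36 and -0.35 in WT mice (1.54, adjusted p = 0.046), and its call did not pass without Notch4-/- mouse 3, nor when any WT mouse was left out (adjusted p up to 0.38).

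Chil1, a chitinase-like protein of macrophages and epithelium, was chosen after its values were seen. It had -0.17, 0.07 and -0.23 in Notch4-/- mice and -0.84, -0.93 and -0.80 in WT mice (0.75, adjusted p = 0.0032). Prdx2, a peroxide-reducing peroxiredoxin chosen in the same way, had 0.13, -0.07 and 0.50 in Notch4-/- mice and -0.84, -0.57 and -0.43 in WT mice (0.80, adjusted p = 0.0023). In both genes all Notch4-/- mice lay above all WT mice, although the other Prdx2 probe set did not pass (0.03). Ms4a7, a membrane protein of macrophages that was picked likewise, had 0.00, 0.16 and 0.12 in Notch4-/- mice and -0.80, -0.69 and -0.89 in WT mice (0.89, adjusted p = 0.0019).

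Trim30d, 1 of the tripartite motif genes, rose by 1.11 at 1435665_at (0.37, 0.09 and 0.35 in Notch4-/- mice and -0.94, -0.65 and -0.94 in WT mice, adjusted p = 0.0018). It was the only call among 43 members of that family, whose median was -0.05, although a different probe set of Trim12a than the one that stands for it rose by 1.06 (adjusted p = 0.017). The Trim12a call did not pass without Notch4-/- mouse 1 or 3 or without WT mouse 1 or 3, with adjusted p up to 0.1.

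Interferon-related genes were mostly higher, with exceptions. Ifi209, a member of the HIN-200 family of interferon-inducible DNA sensors, had -0.03, 0.08 and 0.85 in Notch4-/- mice and -1.08, -0.75 and -0.98 in WT mice (1.24, adjusted p = 0.0054), and without Notch4-/- mouse 3 its adjusted p was 0.056. Ifi202b of the same family, chosen after its values were seen, fell by 1.40, with -0.10, -0.21 and -0.43 in Notch4-/- mice and 0.91, 1.15 and 1.40 in WT mice (adjusted p = 7.1e-05). Among 28 interferon-stimulated antiviral genes Oas1a rose and Xaf1 fell (3.57% each, against 0.225% and 0.363% of all genes). Differences were positive for 25 (89.3%, against 42.9% of all genes), 8 had Notch4-/- levels wholly above WT levels (28.6%, against 4.15%), and the median was 0.22. Oas1a, a sensor of double-stranded RNA, had 0.80, 0.01 and 0.24 in Notch4-/- mice and -0.70, -0.46 and -0.31 in WT mice (0.84, adjusted p = 0.033). Its call passed in 2 of the 6 fits without a mouse.

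Retnla, a secreted resistin-like protein of macrophages and airway epithelium, had levels of 0.13, 0.29 and -0.85 in Notch4-/- mice and -2.25, -1.10 and -1.93 in WT mice (1.62, SE 0.31, adjusted p = 0.008). Its call did not pass without Notch4-/- mouse 1 or 2, or without WT mouse 1 or 3, where the adjusted p reached 0.08.

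None of the genes of the Notch pathway other than Notch4 passed. The other receptors had differences of 0.02 (Notch1), 0.00 (Notch2) and -0.41 (Notch3, adjusted p = 0.49). Notch3 levels were 0.01, -0.05 and -0.23 in Notch4-/- mice and 0.48, 0.47 and 0.00 in WT mice, so the groups overlapped. Of 7 ligands 0 passed and the median was -0.11. Jag1 had -0.22, 0.03 and -0.44 in Notch4-/- mice and 0.53, 0.16 and 0.05 in WT mice (-0.46, adjusted p = 0.41), and Dll4, the Delta-like ligand of endothelium, had -0.06, -0.16 and -0.16 in Notch4-/- mice and -0.05, 0.30 and 0.45 in WT mice (-0.36, adjusted p = 0.62). The other ligands lay between -0.17 (Dll1) and 0.16 (Dlk1). Of 8 target genes 0 passed, with Hes1 at -0.11 (adjusted p = 0.95), Hey1 at -0.32 (adjusted p = 0.79) and a median of -0.03. Of 24 genes that cut, modify or relay Notch receptors 0 passed (median -0.06), and Mfng, a glycosyltransferase that modifies the receptors, had the smallest adjusted p (-0.42, adjusted p = 0.16).

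Endothelial genes were mostly lower. Of 32 measured endothelial markers 0 rose and 2 fell (6.25%, against 0.363% of all genes falling). In the fits that left out 1 air mouse each, 1 or 2 fell. A positive difference was seen for 4 (12.5%, against 42.9% of all genes), and the median was -0.25. The 3 Notch4-/- levels lay wholly below the 3 WT levels for 13 of the 32, where 8.07% of all genes did so. Mmrn2, a matrix protein of vessel walls, had -0.24, -0.25 and -0.51 in Notch4-/- mice and 0.76, 0.39 and 0.14 in WT mice (-0.77, adjusted p = 0.0067) at the probe set that stands for it, and a second probe set fell by 0.91. Aplnr, the apelin receptor, had -0.05, -0.15 and -0.11 in Notch4-/- mice and 0.40, 0.75 and 0.68 in WT mice (-0.71, adjusted p = 0.015). The Aplnr call passed in 2 of the 6 fits without a mouse. Genes that define the lineage did not pass, among them Pecam1 (-0.26, adjusted p = 0.88), Cdh5 (-0.43, adjusted p = 0.8) and Tek (-0.36, adjusted p = 0.27).

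Those were the only calls among 256 marker genes of 24 cell types. Other lists were also mostly lower with 0 passing, among them mesothelial cells (median -0.56, 1 of 6 positive), T cells (-0.21, 2 of 12 positive) and alveolar type 1 cells (-0.14, 1 of 9 positive). The median level of T cell markers was -0.20, -0.09 and 0.33 in Notch4-/- mice and 0.05, 0.35 and 0.27 in WT mice, so mouse 3 lay inside the WT range. For mesothelial and alveolar type 1 cells Notch4-/- mouse 2 lay inside it. The markers of alveolar type 2 cells had a median difference of -0.02, those of skeletal muscle 0.11 and those of ciliated cells 0.17. Their presence cannot be read from centred values.

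Airway secretory genes showed the widest gaps that did not pass. Clca1, a secreted protein of mucous cells, had levels of 4.13, 1.35 and 5.70 in Notch4-/- mice and -1.79, -0.54 and -1.43 in WT mice (4.98, adjusted p = 0.21). Agr2, which folds mucins, had 3.24, 1.18 and 2.10 in Notch4-/- mice and -1.19, 0.11 and -0.44 in WT mice (2.68, adjusted p = 0.23). Reg3g, an antibacterial lectin, had 3.90, 2.88 and 2.55 in Notch4-/- mice and -1.12, 1.33 and -2.38 in WT mice (3.84, adjusted p = 0.63). In these genes every Notch4-/- mouse lay above every WT mouse, yet mice of a genotype also lay far apart, Clca1 differing by over 4 between Notch4-/- mice 2 and 3. With arrays weighted by their scatter Agr2 (adjusted p = 0.0065), Clca1 (0.015), Gp2 (0.015), Muc5b (0.019) and Ltf (0.0087) passed, with Notch4-/- mouse 1 given a weight of 4.1 and mouse 3 one of 0.416. These weights raised the calls over all probe sets from 217 to 3061, so the passing is not particular to secretory genes.

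Of the 8 mucous cell genes 5 had groups that did not overlap, all higher in Notch4-/- mice, where 4.15% of all genes did so, and the list median was 2.00. The mucin Muc5b had 1.82, 1.66 and 0.70 in Notch4-/- mice and 0.00, 0.41 and -1.36 in WT mice (1.71, adjusted p = 0.59). The other mucin of the list, Muc5ac, had a difference of 0.10, and Spdef, a transcription factor of mucous cells, one of 0.03. Bpifa1, an abundant secreted protein of the upper airway, had 1.72, 3.28 and 2.47 in Notch4-/- mice and -0.75, 2.26 and -3.68 in WT mice, which overlapped (3.21, adjusted p = 0.83). Scgb1a1, the main product of club cells, differed by -0.01. Ltf, lactoferrin of neutrophils and airway glands, had 2.69, 2.22 and 0.72 in Notch4-/- mice and -1.61, 0.36 and -1.95 in WT mice (2.94, adjusted p = 0.3). Without Notch4-/- mice 1 and 2 the median of the mucous cell list was 1.15. The median level of ciliated cell markers, which share the conducting airways, was 0.48, 0.15 and 0.10 in Notch4-/- mice and 0.01, 0.29 and -0.19 in WT mice, and the part of airway content in these differences was not tested.

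**Figure D4:**
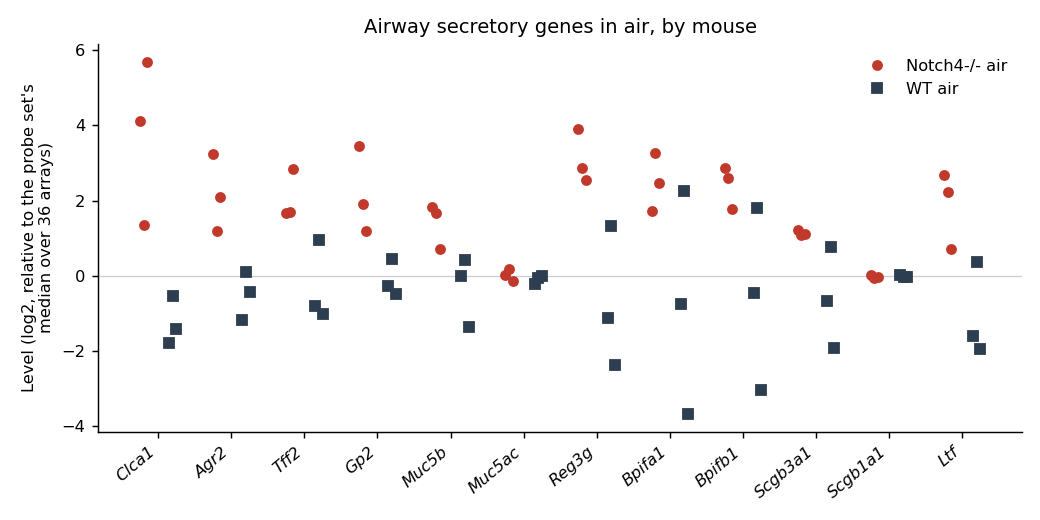
Level of 12 secretory genes of the airways in each mouse in air, in log2 relative to the median of the probe set over 36 arrays on the vertical axis, with Notch4-/- mice to the left of WT mice for each gene. Clca1 stands between 1.35 and 5.70 in Notch4-/- mice and between -1.79 and -0.54 in WT mice, whereas Muc5ac and Scgb1a1 lie near 0 in all 6.

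Neutrophil markers had a median difference of 0.53 with 0 of 11 passing. Notch4-/- levels lay wholly above WT levels for 6 (54.5%, against 4.15% of all genes) and wholly below for 1 (9.09%, against 8.07%). S100a8, a calcium-binding protein of neutrophils, had 0.06, -0.65 and 1.23 in Notch4-/- mice and -1.35, -0.90 and -0.77 in WT mice (1.22, adjusted p = 0.65). Mouse 3 was the highest of the Notch4-/- mice here. In ozone 7 of the 11 passed, all higher in Notch4-/- mice (63.6%, against 2.31% of all genes), with a median of 0.59.

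The mice in ozone allowed the air calls to be looked at in other animals, although the spread of these mice also entered the fit that gave the air calls. A fit to the 18 ozone arrays of both genotypes alone, with the 3 times averaged, gave 1411 probe sets (3.13%). Of the 217 probe sets called in air 216 had the same direction there, whereas 58.9% of all probe sets did. They passed in that direction at 177, which is 81.6% of the air calls and 12.5% of the ozone calls, with 67 higher and 110 lower. The exception in direction was 2810039B14Rik, with a difference of -0.63 in air and 0.13 in ozone. At single ozone times the numbers passing were 110 at 6 hr, 102 at 24 hr and 89 at 48 hr. Without Notch4-/- mouse 1, WT mouse 1 or WT mouse 3 of the air groups, 101, 116 and 101 probe sets passed in both. Because all groups shared the estimate of spread, probe sets that varied little in the ozone mice were favoured among the air calls. The share of 81.6% may therefore be partly built in, and by how much was not tested. In a fit to the 6 air arrays alone 27 probe sets passed, and 27 were shared with ozone. The median size of the difference over the 217 was 0.67 in ozone, and 163 were smaller there than in air. A test of the air difference minus the ozone difference gave 0 calls in limma, with 1664 at an unadjusted p under 0.05 and 48 with array weights.

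**Figure D5:**
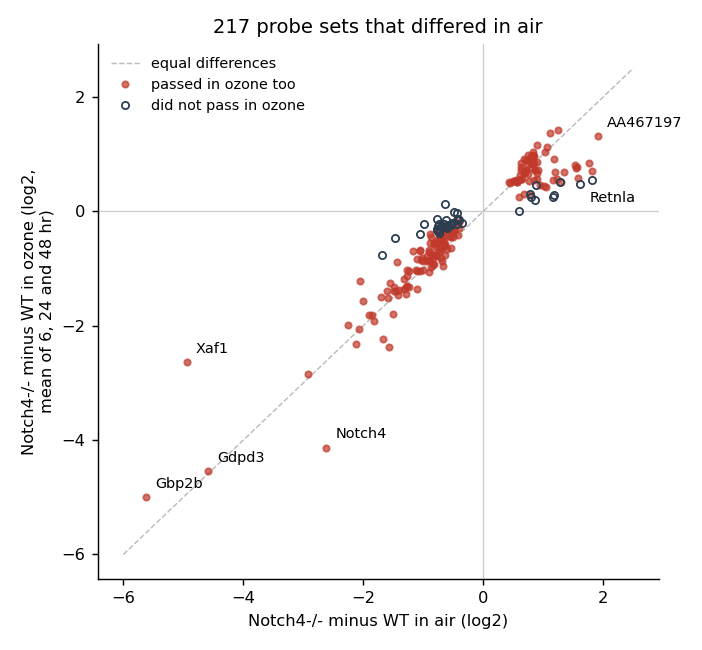
Difference between Notch4-/- and WT mice in ozone (vertical axis, log2, mean of 6, 24 and 48 hr) against that in air (horizontal axis, log2) for the 217 probe sets that passed in air. Filled dots mark the 177 that also passed in ozone, 216 share the direction, and the dashed line marks equal differences.

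Averaged over the 3 times, the 15 largest falls had the same direction in ozone, with sizes that differed from gene to gene. Gbp2b lay between -0.49 and 0.83 (median -0.15) in the 9 Notch4-/- mice and between 4.71 and 5.20 (median 4.95) in the 9 WT mice (-4.99, adjusted p = 3e-12). Gdpd3 differed by -4.54, Tmem87a by -2.05, Fbp2 by -2.32 and Bloc1s6 by -1.91. Xaf1 differed by -2.64, as against -4.94 in air, and Arsj by -1.22, as against -2.05 in air. Notch4 at 1449146_at differed by -4.13 in ozone, more than in air, and the difference between these had an unadjusted p of 0.00024 and an adjusted p of 1. Tshb did not pass (-0.77, adjusted p = 0.058), with Notch4-/- mice at -1.19, -0.98 and -1.45 at 6 hr, 0.36, -1.12 and 0.98 at 24 hr and 1.95, 2.30 and 1.63 at 48 hr. The WT mice lay between 0.68 and 1.51, so the direction at 48 hr was the reverse of that in air.

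For cell division genes the median difference of the 37 mitosis genes in ozone was 0.33, beside 0.85 in air, and 8 passed, all higher in Notch4-/- mice (21.6%), where 2.31% of all genes were called higher in ozone. The air minus ozone difference did not pass for Cdk1, Nuf2 or Pbk (adjusted p = 1 for each). Cdk1 differed by 0.59 (adjusted p = 0.0031). At 48 hr its levels were 2.18, 1.80 and 2.06 in Notch4-/- mice and 1.76, 1.68 and 1.54 in WT mice, above every other exposure in both genotypes. At 6 hr they were 0.02, -0.04 and 0.06 in Notch4-/- mice and -1.05, -1.12 and -0.63 in WT mice, and in neither group did 1 mouse stand apart as mouse 3 did in air. Retnla did not pass (0.47, adjusted p = 0.11), nor did Cdc6 (0.28, adjusted p = 0.28). Of the GTPase list 8 of 11 passed as higher in Notch4-/- than in WT mice in ozone (72.7%, against 2.31% of all genes), while Gbp2b was lower. Clca1 had a difference of 2.21 in ozone (adjusted p = 0.12), and the mucous cell list one of 0.91 with 0 passing.

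Some falls that were even across the mice in air did not pass in ozone. Galnt13, a glycosyltransferase that starts mucin-type sugar chains, had -0.44, -0.53 and -0.48 in Notch4-/- mice in air and 0.13, 0.52 and 0.20 in WT mice (-0.77, adjusted p = 0.0016), and -0.13 in ozone (adjusted p = 0.46). H2bc18, a histone gene, had -0.64, -0.37 and -0.44 in Notch4-/- mice in air and 0.63, 0.66 and 0.25 in WT mice (-0.99, adjusted p = 0.0039), and -0.22 in ozone (adjusted p = 0.44). Both passed in all 6 fits without an air mouse, and for neither did the air difference minus the ozone difference pass.

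Notch4-/- mice were then set against Notch3-/- mice in air, a test that needs no WT mouse. It gave 39 calls (0.0866%), 20 higher and 19 lower in Notch4-/- mice, with 5689 at an unadjusted p under 0.05. Without Notch4-/- mouse 1, 2 or 3 the count was 22, 95 and 60, and without Notch3-/- mouse 2 it was 25. This test and that against WT use the same 3 Notch4-/- mice, so shared calls and directions are partly built in. Of the 39, 9 had also passed against WT, all in the same direction. They were the pair of Notch4 probe sets, 3 of Glo1, 1 each of Dynll1 and Retnla, and a pair with no gene name. Glo1, which detoxifies methylglyoxal, had 0.74, 0.74 and 0.89 in Notch4-/- mice, against -0.03, -0.81 and -0.53 in Notch3-/- mice and -0.18, -0.01 and 0.06 in WT mice (Notch4-/- minus WT 0.83, adjusted p = 0.0027). It lies on chromosome 17, as Notch4 does. The paper places Notch3 close to the susceptibility locus that holds Notch4, so both knockout lines were targeted in that part of the genome. Whether the targeting has a part in the Glo1 difference was not tested. Dynll1, a light chain of the dynein motor, had -0.64, -0.01 and -1.05 in Notch4-/- mice, against 0.90, 1.05 and 0.87 in Notch3-/- mice and -0.02, 0.55 and 0.25 in WT mice (Notch4-/- minus WT -0.83, adjusted p = 0.027). That is its probe set 1440278_at, and its other 3 gave 0.06 to 0.09 and did not pass. The Dynll1 call against WT did not pass without Notch4-/- mouse 1 or 3 or without WT mouse 2 or 3 (adjusted p up to 0.23), whereas that of Glo1 passed in all 6. Retnla was at -2.34, -1.0 and -1.75 in Notch3-/- mice.

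Differences of Notch3-/- mice from WT use the same 3 WT mice and are given as values only. They were -5.10 for Gbp2b, -4.68 for Gdpd3, -4.72 for Xaf1, -2.20 for Tmem87a and -1.81 for Fbp2. The other falls among the 15 had -2.12 (Wdfy1), -2.11 (Cntn1), -1.89 (Bloc1s6), -1.82 (Ctse), -1.78 (Tshb), -1.70 (Arsj), -1.53 (Abhd1), -1.30 (Zdhhc14) and -1.18 (Klra17). Only Notch4 at 1449146_at was near 0 (-0.04). For Cdk1 the value was 0.11, for Pbk 0.08 and for Nuf2 0.61, and the median of the mitosis list was 0.07. Among the other rises AA467197 had 1.28, Ifi209 1.22, Ccl17 0.68 and Retnla 0.06. Medians were 0.66 for neutrophil markers, 0.40 for mucous cell genes, 0.19 for interferon-stimulated antiviral genes and -0.11 for endothelial markers.

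The genes called in air were spread over the chromosomes. Of 18032 genes with a place in RefSeq 167 were called (0.926%), with 5 of 834 on chromosome 17 (0.6%), 19 of 1057 on chromosome 1 (1.8%) and 1 of 617 on chromosome X (0.162%). Of the 100 measured genes nearest to Notch4 in gene order 0 were called, and of the nearest 200 Glo1 was the 1 called.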

How the data were processed

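Affymetrix Mouse Genome 430 2.0 arrays of left-lung RNA from individual mice were used, and groups were taken from the array titles. The deposited values are log2 signals that the authors obtained with GeneSpring GX 11.0 by the RMA method (robust multiarray averaging). Each probe set of the deposited table is centred on its median over the 36 arrays (largest absolute median 5e-07), which the methods do not describe. Quantile normalization, a part of RMA, can pull global shifts together. The 64 control probe sets were left out of the 45101 rows, and every value column, with 0 exceptions, belongs to a sample.

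The air comparison was fitted by lmFit and eBayes of limma 3.58.1 (R 4.3.3), with 1 mean for each of 12 groups over the 36 arrays, so that all groups share 1 estimate of spread, and Benjamini-Hochberg adjusted p-values under 0.05 passed. The methods' ANOVA with Tukey's test was an alternative. The ozone fit used the 18 ozone arrays of Notch4-/- and WT mice. Steps were tested on simulated data. For gene lists 1 probe set stands for a gene, the one with the most specific suffix and then the lowest number; for Notch4 that is 1436901_at. Of the probe sets 34945 have 1 gene symbol, 932 several and 9160 none, and 34741 were matched to RefSeq by gene ID. Named genes were every Notch4 probe set, the 15 largest rises and 15 largest falls among those that passed with groups that did not overlap, up to 5 members of each described list and all of the short Notch and GTPase lists. Members and lists were chosen with earlier results of these data known.

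Replicate numbers are shared by the groups. Deviations of same-numbered Notch4-/- and WT air mice from their group means correlated at 0.26, 0.14 and 0.18 over all probe sets for mice 1, 2 and 3, so the numbers were taken to pair the mice. Differently numbered mice correlated at -0.33 to 0.03. Deviations from a mean of 3 mice constrain each other, so these correlations are weak ground for a pairing. The pairing comes from the data, since no label says that a number marks a shared day. The main fits do not use it.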

Additional observations from a re-analysis of the deposited data

Results flagged for a closer look

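Differences from WT in air that differed between the knockout lines, by a direct limma test of Notch4-/- minus Notch3-/-, were looked at again, and 9 probe sets also called against WT did so. Both tests use the same Notch4-/- air mice, so this overlap is not separate support. The Notch4-/- minus Notch3-/- difference was 1.25 for Glo1 at 1424108_at (adjusted p = 1.9e-05), 1.38 at 1424109_a_at (adjusted p = 1.6e-05) and 1.18 at 1451240_a_at (adjusted p = 3.5e-05), with no overlap of the 3 and 3 mice at the first. For Dynll1 at 1440278_at it was -1.51 (adjusted p = 3.2e-05). For Retnla it was 1.56 (adjusted p = 0.039). For Notch4 it was -2.58 at 1449146_at (adjusted p = 3.2e-05) and -0.75 at 1456263_at (adjusted p = 0.032). Of the probe sets with no gene name 1428989_at gave 1.0 (adjusted p = 0.004) and 1430642_at gave -1.59 (adjusted p = 0.021).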

How the results depend on the processing

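Directions of the 217 air calls were the same in all settings that tested them. With the replicate block, which pairs same-numbered mice, there were 233 calls in air, 206 of them among the 217, 179 shared with ozone, 1287 in ozone and 44 between the knockout lines. The calls of Esco2 (adjusted p = 0.056), Mcm6 (0.061) and Notch4 1456263_at (0.051) were lost with it, and no other named call changed. With a repeated quantile normalization there were 400 air calls, 270 shared with ozone and 164 between the knockout lines. Array weights gave 3061, 719 and 3378, with 2320 in ozone and 48 for the air minus ozone difference. With fewer arrays sharing the estimate of spread the counts fell, to 27 and 27 shared with ozone over the 6 air arrays and to 65, 53 shared and 9 between the knockout lines over the 9 air arrays. The methods' ANOVA with Tukey's test gave 38, 38 and 14. Of 60 named air calls, 46 were lost over the 6 air arrays, 31 over the 9, 41 with Tukey's test and 30 without Notch4-/- mice 1 and 2, and 0 changed direction. With Notch4-/- air mice 1 and 2 left out together, the lone Notch4-/- mouse being assumed to vary like the other groups, 202 passed, 80 of them among the 217, with 94 shared with ozone and 1032 between the knockout lines. Taken 1 ozone time at a time, 110, 102 and 89 air calls were shared at 6, 24 and 48 hr. Leaving out 1 mouse gave 106 to 238 air calls, 101 to 178 shared with ozone, 22 to 95 between the knockout lines, 0 to 1 for the air minus ozone difference and 977 to 1689 in ozone. The cause of these shifts was not tested, and the fits with fewer arrays also drew the spread from fewer groups. Since levels are centred, signal over background could not be used as a filter.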

Other observations

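Immune cell markers other than those of neutrophils also differed from mouse to mouse. The 10 measured B cell markers were all positive, with a median difference of 0.36 and 0 passing, and their median level was -0.34, 0.01 and 0.95 in Notch4-/- mice and -0.16, 0.00 and -0.15 in WT mice. Mouse 3 alone was high. The 9 platelet markers were all positive too (median 0.23, 0 passing), with 0.12, -0.10 and 0.83 in Notch4-/- mice and -0.16, -0.07 and 0.07 in WT mice. Of 14 glucocorticoid-responsive genes 0 passed and the median difference was -0.28, with median levels of -0.09, -0.22 and -0.74 in Notch4-/- mice and -0.03, -0.12 and -0.02 in WT mice. Mouse 3, which had the lowest Notch4 level and WT-like levels of mitosis genes, was thus also the one that stood apart in these lists. With Notch4-/- mice 1 and 2 left out, the medians were 1.15 for B cells, 0.76 for platelets and -0.64 for the glucocorticoid-responsive genes.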
